A study of Homo sapiens with 21 samples.

Results

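Interferon-stimulated genes are the genes that cells switch on when an interferon, a cytokine of antiviral defence, binds its receptor. The set described here holds 48 of them, taken by symbol from a list of the receptor chains, the transcription factors and the induced antiviral genes, and matched to the Ensembl identifiers of the deposited files. All 48 were found among the 61541 genes of the gene count table and among the 57300 gene ids of the exon bin files. In the bin files 40 members had an id of their own. The other 8 lay in ids that join overlapping genes, and since IFITM1 and IFITM2 shared such an id, the bin files held the members in 47 ids. The others share an id with a neighbour: IRF9 with RNF31, IFNAR2 with IL10RB, IFI6 with LINC02574, TRIM22 with OR56B1, TRIM25 with MIR3614 and C17orf67, and IFIT2 with an id that has no symbol. Values of such an id belong to the genes together.

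All 21 libraries came from K562, a human cell line long established from a chronic myeloid leukaemia and erythroid in character, kept in medium with 10% fetal bovine serum, and they form 7 groups of 3. In the 34kn and 34kp groups, one or the other of a pair of enhancer RNAs (eRNAs), transcripts of an enhancer 34 kb upstream of MYB, was overexpressed, and each group has control libraries of its own, here called 34kn control and 34kp control. The groups labelled NMYB overexpression and MYB overexpression were set against an empty vector. The series compares the transcription factor MYB with a form of it that lacks N-terminal sequence. The label NMYB is not spelled out. The labels mark the eRNA controls as WT. They do not give the vectors or the promoters that drove them, nor whether replicates were separate cultures, so the p-values measure the spread between these libraries, which may be technical.

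Type I interferons bind a receptor made of the chains IFNAR1 and IFNAR2, whose kinases JAK1 and TYK2 phosphorylate STAT proteins. STAT2 and IRF9 belong to the complex that then binds the interferon-stimulated response element (ISRE), a DNA motif near the start of many induced genes, whereas interferon gamma acts through a different motif, the gamma-activated site (GAS). Some of the same genes are also induced without secreted interferon, when sensors of double-stranded RNA activate IRF3 and IRF7. K562 cells are known to lack the genes of interferon alpha and beta and to keep a working receptor.

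Promoters are shown for 6 members that rose with 34kp and hold an ISRE-type match, and for OAS1, which rose with 34kp without such a match. Each is the RefSeq sequence (GRCh38.p14) of 300 bases, with 250 bases before the annotated gene start and 50 after it, given 5′ to 3′ on the gene's strand. Capitals mark ISRE-type matches, that is, GAAA followed by any 2 bases and GAAA again or, for the other strand, TTTC followed by any 2 bases and TTTC again. Overlapping matches run together. Only a gap of exactly 2 bases was counted. The OAS1 promoter holds gaaacgaaa, with a single base between the repeats, so its lack of a match follows from this definition.
IFI6: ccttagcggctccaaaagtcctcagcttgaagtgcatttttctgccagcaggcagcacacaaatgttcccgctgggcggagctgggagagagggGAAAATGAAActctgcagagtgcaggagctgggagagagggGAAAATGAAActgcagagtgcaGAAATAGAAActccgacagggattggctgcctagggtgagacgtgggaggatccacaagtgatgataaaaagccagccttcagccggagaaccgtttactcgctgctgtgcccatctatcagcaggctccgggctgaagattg
IFI27: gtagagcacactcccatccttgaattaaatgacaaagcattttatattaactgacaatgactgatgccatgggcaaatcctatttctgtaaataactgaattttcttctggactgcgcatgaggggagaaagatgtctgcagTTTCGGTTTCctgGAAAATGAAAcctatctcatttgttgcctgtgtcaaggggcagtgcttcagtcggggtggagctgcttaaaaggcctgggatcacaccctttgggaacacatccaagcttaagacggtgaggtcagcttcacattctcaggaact
ISG15: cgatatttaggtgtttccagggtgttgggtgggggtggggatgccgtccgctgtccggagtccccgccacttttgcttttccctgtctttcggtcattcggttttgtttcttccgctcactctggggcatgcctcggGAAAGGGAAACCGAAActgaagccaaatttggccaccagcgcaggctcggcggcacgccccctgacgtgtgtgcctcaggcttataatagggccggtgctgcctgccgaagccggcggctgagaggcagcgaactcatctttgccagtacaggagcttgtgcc
IFIT1: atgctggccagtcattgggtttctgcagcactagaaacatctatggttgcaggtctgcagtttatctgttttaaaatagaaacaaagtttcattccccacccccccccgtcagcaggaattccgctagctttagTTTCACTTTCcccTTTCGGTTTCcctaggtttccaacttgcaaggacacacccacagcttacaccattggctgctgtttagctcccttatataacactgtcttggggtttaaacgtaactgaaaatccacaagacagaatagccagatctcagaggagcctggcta
OAS3: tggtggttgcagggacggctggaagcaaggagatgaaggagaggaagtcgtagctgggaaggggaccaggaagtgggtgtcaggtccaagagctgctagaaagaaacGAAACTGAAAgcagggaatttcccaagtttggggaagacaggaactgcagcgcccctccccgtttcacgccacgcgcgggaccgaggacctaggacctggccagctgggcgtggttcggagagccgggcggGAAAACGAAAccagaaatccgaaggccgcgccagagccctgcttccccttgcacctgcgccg
MX1: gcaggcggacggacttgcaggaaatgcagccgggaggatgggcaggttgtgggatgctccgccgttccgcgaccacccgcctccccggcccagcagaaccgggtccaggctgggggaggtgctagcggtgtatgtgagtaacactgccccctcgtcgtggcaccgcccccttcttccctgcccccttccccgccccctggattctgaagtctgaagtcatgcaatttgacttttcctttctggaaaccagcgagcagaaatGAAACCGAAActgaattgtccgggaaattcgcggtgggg
OAS1: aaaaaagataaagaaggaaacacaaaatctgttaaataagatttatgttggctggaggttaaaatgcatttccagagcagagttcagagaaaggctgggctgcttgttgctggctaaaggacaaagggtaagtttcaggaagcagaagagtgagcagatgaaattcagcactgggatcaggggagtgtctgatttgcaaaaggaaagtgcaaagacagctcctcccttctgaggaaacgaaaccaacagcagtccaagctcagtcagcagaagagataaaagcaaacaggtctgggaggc

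These windows lie at chr1:27672143-27672442 (minus strand) and, on the plus strand, at chr14:94110486-94110785, chr1:1013247-1013546, chr10:89392373-89392672, chr12:112938224-112938523, chr21:41420308-41420607 and chr12:112906712-112907011. Of the 48 members, 36 were matched to a promoter that can be shown, and 23 of these 36 (63.89%) held at least 1 ISRE-type match, against 996 of all 27305 promoters in the table (3.648%). The GAS-type letters TTCNNNGAA, the same on both strands, were found in 8 of the 36 (22.22%) and in 7.881% of all promoters. In IFI27, a GAS-type match at positions -101 to -93 overlaps both ISRE-type matches. Of the 15 members with a promoter that rose with 34kp, 11 held an ISRE-type match, against 9 of 17 that were tested and did not pass and 3 of 4 that were too low to test. These matches describe letters and were not tested as binding sites.

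**Figure D1:**
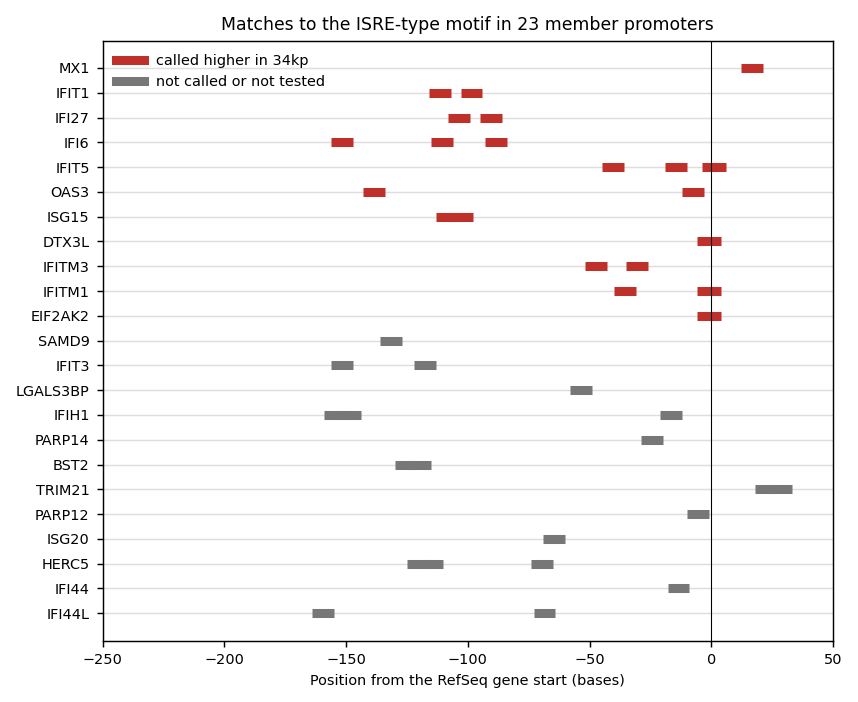
Positions of ISRE-type matches in the 23 member promoters that hold one, in bases from the RefSeq gene start on the gene's strand (x axis), with 1 promoter per line. Red bars belong to members that rose with 34kp (IFITM1 through the id it shares with IFITM2) and grey bars to the rest. The 3 matches of IFI6 lie between positions -156 and -84, and the match of MX1 lies after the start, at 12 to 21.

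The libraries of the bin files held 36563252 to 41243796 bin counts each, and those counted by gene held 16552237 to 24462819 counts. MYB itself, the gene the third experiment targets, had 215, 202 and 217 CPM (counts scaled to a common library size) in the libraries labelled NMYB overexpression, 231, 228 and 222 CPM in those labelled MYB overexpression and 216, 210.3 and 219 CPM with empty vector, and neither comparison with empty vector passed the test (edgeR adjusted p = 0.727 for NMYB and 0.23 for MYB). All 10 listed genes of K562 identity, among them TFRC and GATA1, were present. Of the defining markers of other cell types, MS4A1 (B cells) and LUM (fibroblasts) were at 0 in every library. The 6 monocyte markers summed to between 20.7 and 25.8 CPM with 34kp, against 20.9 to 24.6 CPM in its controls. The 6 lymphocyte markers summed to between 8.58 and 14.1 CPM with 34kp, against 8.25 to 9.67 CPM in its controls. The 4 plasmacytoid dendritic cell markers, of which CLEC4C was at 0 in all bin libraries, summed to between 43.5 and 63.1 CPM with 34kp, against 60.8 to 63.6 CPM in its controls. The 6 fibroblast markers summed to between 34.2 and 41.9 CPM with 34kp, against 40.3 to 41.2 CPM in its controls. The part of these markers in the results was not tested. Single libraries weighed on the eRNA comparisons: without 34kp control 2 the ids called over the whole table numbered 46 in place of 392, without 34kp 2 they numbered 58, and without 34kp 3 they numbered 1175.

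Levels of the members spanned a wide range in empty-vector K562 cells. Per kilobase of exon, the membrane proteins that block virus entry or release led, with IFITM1 at 334 CPM per kb, BST2 (tetherin) at 132, IFITM2 at 63.1 and IFITM3 at 48.3. Of the signalling genes, STAT2 stood at 10.9 CPM per kb, IFNAR1 at 10.4, IRF7 at 1.28, IRF9 at 0.496 and IFNAR2 at 0.3. IRF9 and IFNAR2 overlap RNF31 and IL10RB. How reads in shared exons were counted is not stated, so their levels are uncertain. ISG15, a ubiquitin-like protein attached to other proteins in the antiviral state, stood at 8.73 CPM per kb. Classical induced genes were near absent: with empty vector IFIT1 had 1, 2 and 2 counts per library, OAS1 had 1, 0 and 0 and MX1 had 0, 1 and 0. Over the 9 libraries counted by gene, 10 members never reached 10 counts in any library, and HERC5, IFI44L and OAS2 were at 0 throughout, which at these depths allows up to 0.122 to 0.181 CPM per library for counting error alone. Of 10 listed interferon genes, 8 were at 0 in all gene table libraries and 9 in all bin libraries. IFNK, the keratinocyte interferon, had at most 3 counts in any library and IFNL1 at most 1.

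With 34kp, 16 ids of the set rose and none fell. Of the 40 ids tested, 16 were higher (edgeR quasi-likelihood test, Benjamini-Hochberg adjusted p below 0.05), against 0.63% of all 16662 ids called higher, and 0 were lower, against 1.72% of all ids. No id was lower at an unadjusted p below 0.05 either, and DESeq2 called 18 higher and 0 lower, beside 976 of all ids in either direction. The 3 libraries with 34kp all lay above the 3 controls for 25 of the 40 ids and all below for none, against 10.9% and 12.9% of all ids. The median log2 fold change over the 40 ids was 0.44, against -0.005 over all ids tested. OAS1, MX1, IFIT1, IFIT5 and HERC6 met the filter on low counts only through their 34kp libraries. Their entry into the test thus depended on being high with 34kp, and they raise these counts and this median. The largest differences belonged to genes that are almost silent in K562, and 7 ids, those of HERC5, OAS2, OASL, IFIT2, IFI44, IFI44L and XAF1, were too low to test. The 34kp libraries also stood apart in read quality, with 4.46% to 4.64% of counted items of low alignment quality with 34kp, against 7.14% to 8.35% in the controls. Ambiguous items made up 0.0215% to 0.0225% with 34kp, against 0.0158% to 0.0171% in the controls, and the part of either in these results was not tested. In bulk RNA, more cells that express a gene and more RNA per cell cannot be told apart.

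**Figure D2:**
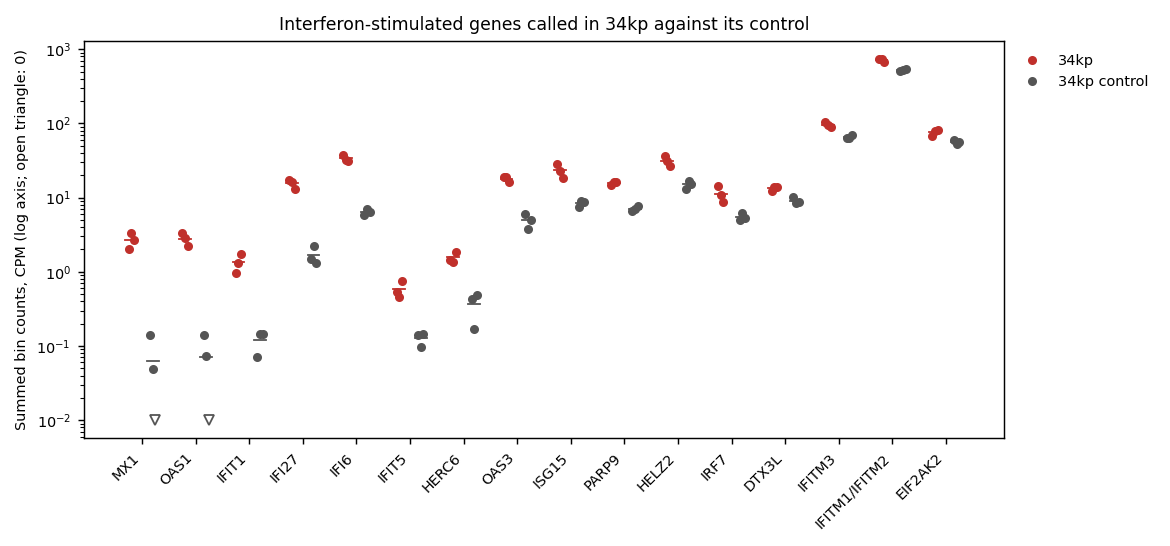
Summed bin counts per library in CPM (log axis) for the 16 ids that rose with 34kp, ordered by fold change. Red points are the 34kp libraries and grey points the 34kp controls, bars are group means of 3 libraries, and open triangles mark libraries at 0. Every red point lies above every grey point of the same gene.

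Among receptors and transcription factors, 1 of 7 rose. IRF7, the factor that amplifies interferon production, had 14.4, 10.8 and 8.71 CPM with 34kp, against 4.96, 6.15 and 5.25 CPM in the controls. The groups do not overlap, and the rise was 2.07-fold (95% confidence interval 1.56 to 2.73, edgeR adjusted p = 0.015). The receptor chains did not pass: IFNAR1 averaged 62.0 ± 10.6 CPM with 34kp and 65.7 ± 6.51 CPM in the controls (SD, n = 3 each), with a log2 fold change of -0.09 ± 0.124 SE. STAT2, the partner of IRF9, had a log2 fold change of -0.09 ± 0.0854 SE. The id that holds IRF9 together with RNF31 had 73.3, 78.7 and 61.1 CPM with 34kp, against 53.6, 58.5 and 56.2 CPM in the controls. Its groups do not overlap, but it did not pass the test (log2 fold change 0.33, edgeR adjusted p = 0.122). IRF1 (-0.15), IRF3 (0.21) and the id that joins IFNAR2 with IL10RB (-0.16) did not pass either (log2 fold changes in brackets).

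The oligoadenylate synthetases make the second messenger that activates the RNA-degrading enzyme RNase L. OAS1 and OAS3 were tested and rose, but OAS1 met the filter on low counts only through 34kp. OAS1 had 138, 118 and 84 summed bin counts with 34kp, against 6, 3 and 0 in the controls. Its rise was 37.1-fold (17.5 to 78.4, edgeR adjusted p = 0.000483). OAS3 had 18.9, 18.7 and 16.2 CPM with 34kp, against 5.95, 3.75 and 5.05 CPM in the controls, a rise of 3.62-fold (2.83 to 4.65, edgeR adjusted p = 0.000307). Neither gene's groups overlap. OAS2 had 14, 41 and 8 counts with 34kp and 0, 0 and 6 in the controls, too few for the test. Of 45 OAS3 bins with at least 10 counts over the 6 libraries, 42 had a higher mean with 34kp (1 read can count in several bins). OAS3 counts totalled 612 in the controls and 2169 with 34kp, so the direction of these bins is no separate support. The controls held 9 OAS1 counts in total. OAS1 bins therefore reach 10 counts almost only through 34kp, and their direction is no further support.

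MX1, a dynamin-like GTPase that traps viral nucleocapsids, had the largest estimated fold change of the set, with an interval that overlaps that of OAS1. It had 83, 138 and 103 summed bin counts with 34kp, against 6, 2 and 0 in the controls, 39.7-fold higher (18 to 87.5, edgeR adjusted p = 0.000578). The groups lie far apart. With 8 counts in total in the controls, MX1 bins reach 10 counts almost only through 34kp, so their direction is no further support. Its neighbour MX2 had 7, 16 and 15 counts with 34kp and 20, 17 and 2 in the controls. These groups overlap, and MX2 did not pass the test. SAMD9, a restriction factor of poxviruses, averaged 5.29 ± 0.296 CPM with 34kp and 2.97 ± 0.857 CPM in the controls (SD, n = 3 each), and did not pass (edgeR adjusted p = 0.0627). Its paralogue SAMD9L had a log2 fold change of 0.09 ± 0.287 SE.

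The IFIT proteins bind foreign RNA ends and block their translation, and 2 of 3 tested ids rose. Those 2, IFIT1 and IFIT5, met the filter on low counts only through 34kp. IFIT1 had 40, 55 and 66 counts with 34kp, against 3, 6 and 6 in the controls, 10.8-fold higher (5.65 to 20.7, edgeR adjusted p = 0.00265). IFIT5 had 22, 19 and 29 counts with 34kp, against 6, 4 and 6 in the controls, 4.43-fold higher (2.21 to 8.89, edgeR adjusted p = 0.0356). In both genes every 34kp library lies above every control. IFIT3 had 59, 107 and 77 counts with 34kp and 54, 46 and 50 in the controls. Its groups also stand apart but it did not pass (edgeR adjusted p = 0.174).

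Of the ISG15 system, in which ISG15 is attached to proteins by ligases such as HERC5 and removed by USP18, 2 of 3 tested ids rose. HERC6, among these, met the filter on low counts only with its 34kp libraries. ISG15 had 28.5, 22.9 and 18.6 CPM with 34kp, against 7.40, 8.92 and 8.81 CPM in the controls, 2.78-fold higher (2.18 to 3.53, edgeR adjusted p = 0.00103). HERC6, of the same ligase family as HERC5, had 60, 57 and 71 counts with 34kp, against 18, 7 and 20 in the controls, 4.27-fold higher (2.43 to 7.52, edgeR adjusted p = 0.0158). Neither gene's groups overlap. USP18 had 47, 39 and 64 counts with 34kp and 41, 12 and 32 in the controls, with 1 control among the 34kp values, and did not pass (edgeR adjusted p = 0.3). HERC5 reached at most 3 counts in any library.

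Among the other induced genes, IFI6 and IFI27, both mitochondrial or endoplasmic reticulum membrane proteins of the same small family, rose most clearly. IFI6, whose id also holds the noncoding gene LINC02574, had 38.0, 31.8 and 31.2 CPM with 34kp, against 5.88, 7.03 and 6.30 CPM in the controls, 5.24-fold higher (4.34 to 6.34, edgeR adjusted p = 1.02e-05). IFI27 had 17.2, 16.1 and 13.2 CPM with 34kp, against 1.49, 2.23 and 1.30 CPM in the controls, 9.21-fold higher (6.79 to 12.5, edgeR adjusted p = 2.41e-05). Their groups are far apart, and all 13 IFI6 bins and all 15 IFI27 bins with at least 10 counts had a higher mean with 34kp. The controls held 795 IFI6 and 208 IFI27 counts in total, against 4077 and 1879 with 34kp. Bins thus reach 10 counts mostly through 34kp, and their direction is no further support. LGALS3BP, a secreted glycoprotein, had a log2 fold change of 0.47 and did not pass (edgeR adjusted p = 0.0912). IFI35 (-0.26) and the exonuclease gene ISG20 (-0.38) had negative log2 fold changes and did not pass.

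Of the PARP family and its partners, 3 of 6 rose. PARP9, which forms a complex with the ubiquitin ligase DTX3L, had 14.9, 16 and 16.1 CPM with 34kp, against 6.55, 7.0 and 7.80 CPM in the controls, 2.19-fold higher (edgeR adjusted p = 0.000841). HELZ2, a helicase, had 36.2, 31.3 and 26.9 CPM with 34kp, against 13.0, 16.7 and 15.4 CPM in the controls, 2.09-fold higher (edgeR adjusted p = 0.00309). The groups of both genes stand apart. DTX3L averaged 13.4 ± 1.02 CPM with 34kp and 9.14 ± 0.905 CPM in the controls (SD, n = 3 each, 1.46-fold, edgeR adjusted p = 0.0446). DTX3L and PARP9 overlap at their starts on opposite strands of chromosome 3 in GENCODE 29, so without a stated strand setting their counts there are uncertain. PARP10, PARP12 and PARP14 did not pass, with log2 fold changes of 0.36, 0.01 and 0.28.

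The abundant members moved less. The joined id of IFITM1 and IFITM2, proteins that stop virus fusion, had 742, 735 and 667 CPM with 34kp, against 516, 526 and 534 CPM in the controls, 1.36-fold higher (edgeR adjusted p = 0.00774). IFITM3 averaged 95.9 ± 7.09 CPM with 34kp and 65.4 ± 2.99 CPM in the controls (SD, n = 3 each, 1.46-fold, edgeR adjusted p = 0.00896). The near-identical IFITM genes may share reads, so their separate values are uncertain. EIF2AK2, the kinase PKR that halts translation on double-stranded RNA, averaged 75.6 ± 6.31 CPM with 34kp and 56.5 ± 2.7 CPM in the controls (SD, n = 3 each, 1.33-fold, edgeR adjusted p = 0.0409). BST2 had a log2 fold change of 0.27 and did not pass. The other RNA sensors and editors IFIH1 (0.45), DHX58 (0.47) and ADAR (0.17) had positive log2 fold changes short of the threshold, as did the ubiquitin ligases TRIM21 (0.26), TRIM22 (0.43) and TRIM25 (0.16).

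Of 68 pathway genes listed outside the 48, 47 were tested with 34kp and 1 was called, beside 2.35% of all ids called in either direction. Among these, 25 were further interferon-induced genes, of which edgeR called 0, with 9 at an unadjusted p below 0.05. None of the 10 listed interferon genes was high enough to test. Of the 16 calls among the members, 9 held under all alternatives tried: HELZ2, IFI27, IFI6, IFIT1, ISG15, MX1, OAS1, OAS3 and PARP9. The count fell to 9 without 34kp control 2 and likewise without 34kp 2, and reached 20 without 34kp 3.

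With 34kn, no interferon-stimulated gene passed the test. Of the 34 ids tested with edgeR 0 were called, as were 0% of all 16116 ids. At an unadjusted p below 0.05 there were 7, and DESeq2 called 1, IRF3, at a log2 fold change of -0.35 (adjusted p = 0.0245). Over the whole table DESeq2 called 1289 ids. All 3 libraries with 34kn lay above the controls for 3 of the 34 ids and below for 6, against 14.3% and 14.8% of all ids. The median log2 fold change over the 34 ids was -0.12, against 0.00 over all ids. Without 34kn control 2 the count was 5 (IFNAR1 higher, and IRF3, BST2, IRF9 and the IFITM1/IFITM2 id lower), when 2982 of all ids were called, and without 34kn control 1 it was 1, the IFITM1/IFITM2 id, when 447 were called. These names were chosen after their values were seen.

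IFI6 had 1.03, 1.24 and 0.852 CPM with 34kn, against 2.41, 1.98 and 1.28 CPM in the 34kn controls. The groups lie next to each other without overlap, and the log2 fold change of -0.87 ± 0.291 SE did not pass (edgeR adjusted p = 0.117). ISG15 had 8.24, 7.89 and 7.20 CPM with 34kn, against 10.1, 9.24 and 9.58 CPM in the controls, also without overlap (log2 fold change -0.32 ± 0.119 SE, edgeR adjusted p = 0.147). The log2 fold changes were 0.14 ± 0.358 SE for IFI27, -0.22 ± 0.304 SE for OAS3, -0.19 ± 0.177 SE for IRF7 and -0.20 ± 0.142 SE for HELZ2. IRF3 had 106, 111 and 124 CPM with 34kn, against 170.0, 126 and 137 CPM in the controls, all 34kn libraries being lower (log2 fold change -0.35, edgeR adjusted p = 0.0897). MX1 was at 0, 0 and 0 counts with 34kn and 0, 4 and 0 in the controls, and OAS1 at 2, 2 and 0 counts with 34kn and 0, 0 and 0 in the controls. Neither was high enough to test. Of 47 pathway genes outside the 48, edgeR called 0, with 7 positive and 6 negative at an unadjusted p below 0.05.

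The levels in the controls of the eRNA experiments are set side by side, without a test. IFI6 averaged 1.89 ± 0.572 CPM in the 34kn controls and 6.40 ± 0.579 CPM in the 34kp controls (SD, n = 3 each). LGALS3BP averaged 3.15 ± 0.842 CPM in the 34kn controls and 10.6 ± 0.745 CPM in the 34kp controls. HELZ2 averaged 8.80 ± 0.922 CPM in the 34kn controls and 15.0 ± 1.90 CPM in the 34kp controls. Other members were higher in the 34kn controls. The IFITM1/IFITM2 id averaged 729 ± 20.3 CPM in the 34kn controls and 525 ± 9.26 CPM in the 34kp controls, and IRF3 averaged 144 ± 23.1 CPM in the 34kn controls and 82.5 ± 11.1 CPM in the 34kp controls. ISG15 averaged 9.64 ± 0.427 CPM in the 34kn controls and 8.37 ± 0.846 CPM in the 34kp controls.

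The effects of 34kn and 34kp were then set against each other in a single model of the 12 bin libraries. The effect of 34kn was lower than that of 34kp for 11 of 40 ids and higher for 0 (edgeR adjusted p below 0.05), against 3.53% lower and 2.83% higher of all 17323 ids (6.36% called in all), with 33 of the 40 estimates negative. No id was higher at an unadjusted p below 0.05, and DESeq2 called 11 lower and 0 higher, beside 2056 of all ids in either direction. The 40 ids include OAS1, MX1, IFIT1, IFIT5 and HERC6, which met the filter on low counts only through 34kp. The median difference over the 38 ids without a group at 0 was -0.585 on the log2 scale (34kn effect minus 34kp effect), against 0.019 over all ids. The 11 were IFI6, IFI27, OAS3, ISG15, HELZ2, IRF7, PARP9, IFITM3, the IFITM1/IFITM2 id, the IRF9 id and MX1. For IFI6 the difference was -3.26 ± 0.272 SE (edgeR adjusted p = 1.56e-05), for IFI27 -3.07 ± 0.352 SE (0.000233) and for ISG15 -1.79 ± 0.199 SE (0.000191). HERC6 (0.0543) and IFIT1 (0.0505) missed the threshold, and the fitted differences of OAS1 and MX1, each at 0 in a whole group, depend on the prior count and are not read as sizes. Of the 11, 8 were called under all alternatives tried, MX1, IRF9 and IRF7 being lost under some. Without 34kp 3, IFNAR1 and IFNAR2 were called higher, names chosen after their values were seen. Of the pathway genes outside the 48, 3 of 47 differed, a share of 6.38% that is near that of all ids. Among them, LY6E, a surface protein of the Ly6 family, differed by -0.43 and TYMP, a thymidine phosphorylase, by -0.71.

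**Figure D3:**
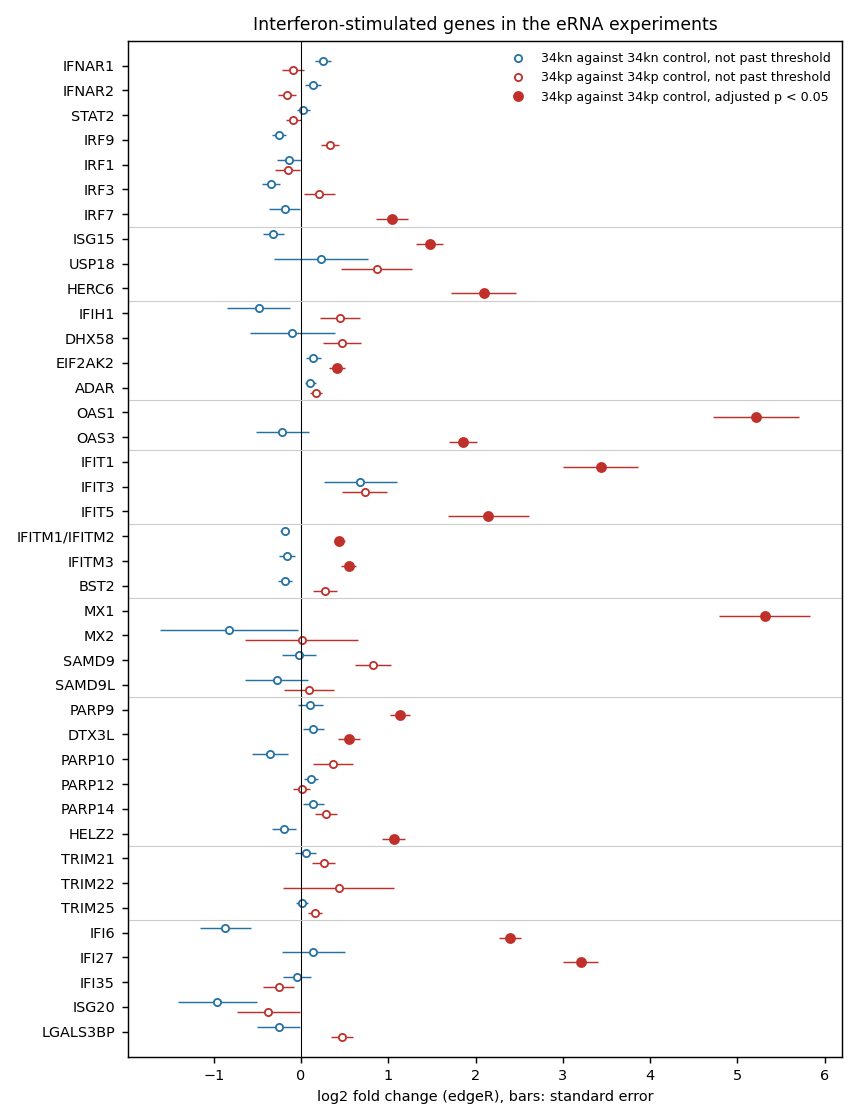
Log2 fold changes with standard errors (x axis) of all 40 ids tested in the 34kp comparison, grouped by role, with 34kn against its control in blue and 34kp against its control in red. Filled points passed an edgeR adjusted p of 0.05: 16 red points and 0 blue ones, with OAS1 and MX1 farthest to the right. Ids without a blue point were too low to test with 34kn.

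In the third experiment, the libraries labelled NMYB overexpression and MYB overexpression were each compared with empty vector, and both comparisons share the same 3 empty-vector libraries. With NMYB, 9 of 35 tested members were higher and 2 lower (edgeR adjusted p below 0.05), beside 12.6% and 12.4% of all 15823 genes. With MYB, 7 of 35 were higher and 4 lower, beside 9.62% and 12.7% of all genes. The median log2 fold change over the 35 members was 0.16 with NMYB, against 0.008 over all genes, and 0.10 with MYB, against 0.005. With NMYB 15 members lay fully above and 3 fully below empty vector, beside 19.4% and 19.5% of all genes. With MYB 12 lay fully above and 5 fully below, beside 19.8% and 20.7%. Of the members called higher, IFIH1, MX2 and USP18 met the filter on low counts only through the NMYB and MYB libraries. Their entry into the test thus depended on being high there, and they raise these counts and medians. The 6 lymphocyte markers summed to between 19.4 and 20.9 CPM with NMYB and 16.2 and 17.6 CPM with MYB, against 35.9 to 37.1 CPM with empty vector, mostly CD3D. The 6 monocyte markers summed to between 36.1 and 39.5 CPM with NMYB and 32.2 and 37.3 CPM with MYB, against 23.7 to 28.7 CPM with empty vector, almost all of it LYZ. The 4 plasmacytoid dendritic cell markers summed to between 33.2 and 35.3 CPM with NMYB and 36.4 and 40.0 CPM with MYB, against 30.3 to 33.7 CPM with empty vector. The 6 fibroblast markers summed to between 9.39 and 10.2 CPM with NMYB and 8.82 and 9.36 CPM with MYB, against 11.5 to 11.9 CPM with empty vector. The part of these markers in these results was not tested.

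**Figure D4:**
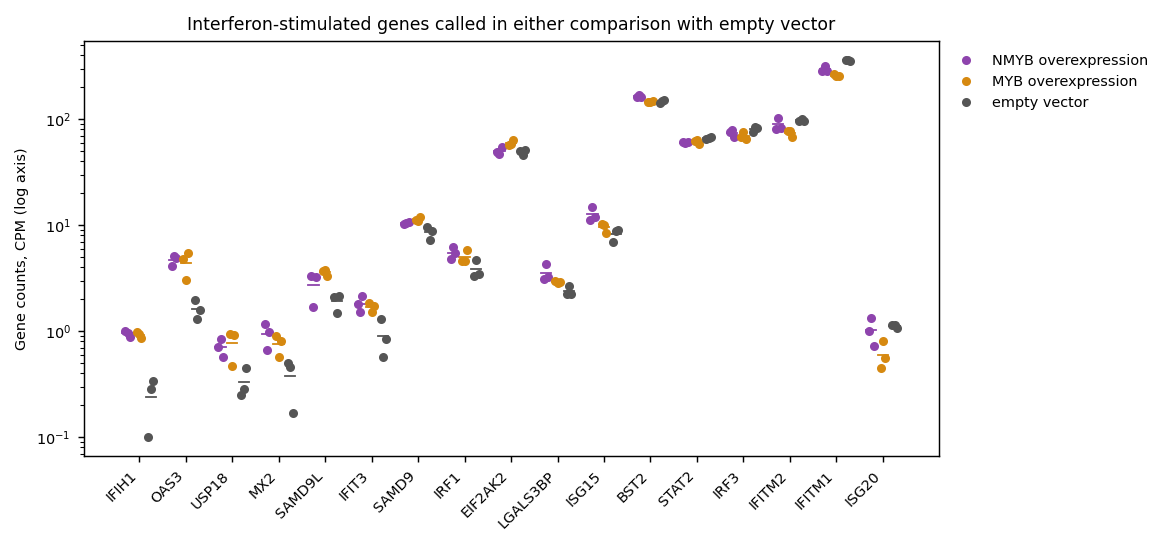
Gene counts per library in CPM (log axis) for the 17 members called in at least 1 comparison with empty vector, ordered by the fold change with MYB. Purple points are NMYB libraries, orange points MYB libraries and grey points empty vector, and bars are group means of 3 libraries. IFIH1 and OAS3 stand highest above empty vector, and IFITM1 stands below it in both groups. IFIH1, MX2 and USP18 met the filter on low counts only through the NMYB and MYB libraries.

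The RNA sensor IFIH1 (MDA5) and OAS3 were higher in both comparisons, and so were IFIT3 and SAMD9. Of these, IFIH1 met the filter on low counts only through the NMYB and MYB libraries. IFIH1 had 20, 16 and 17 counts with NMYB, 24, 20 and 17 with MYB and 2, 5 and 6 with empty vector. Every NMYB and MYB library lies above every empty-vector library. The fold was 3.96 with NMYB (95% confidence interval 2.27 to 6.92, edgeR adjusted p = 0.000884) and 3.86 with MYB (2.23 to 6.68, adjusted p = 0.000946). OAS3 had 4.09, 5.08 and 4.95 CPM with NMYB, 4.76, 3.06 and 5.47 CPM with MYB and 1.95, 1.32 and 1.58 CPM with empty vector. It was 2.87-fold higher with NMYB (edgeR adjusted p = 6.07e-05) and 2.71-fold higher with MYB (adjusted p = 8.69e-05), again without overlap. IFIT3 had 1.82, 1.51 and 2.13 CPM with NMYB, 1.83, 1.51 and 1.72 CPM with MYB and 1.30, 0.573 and 0.848 CPM with empty vector. It was 1.98-fold higher with NMYB (edgeR adjusted p = 0.0108) and 1.83-fold higher with MYB (adjusted p = 0.0228). Its groups do not overlap with empty vector either.

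SAMD9 rose in both comparisons by small amounts, 1.23-fold with NMYB (edgeR adjusted p = 0.0439) and 1.34-fold with MYB (adjusted p = 0.00591). Its libraries had 10.3, 10.6 and 10.8 CPM with NMYB, 11.3, 11.1 and 12.1 CPM with MYB and 9.61, 7.27 and 8.76 CPM with empty vector. Both groups lie above empty vector. With NMYB the call was lost in 10 of 16 alternatives, DESeq2 and a fit of the compared groups alone among them. IFITM1, the most abundant member, was lower in both, with 287, 319.6 and 288 CPM with NMYB, 266, 255 and 254 CPM with MYB and 365, 364 and 355 CPM with empty vector. It fell by 0.28 on the log2 scale with NMYB (edgeR adjusted p = 0.00021) and fell by 0.49 with MYB (adjusted p = 3e-07), without overlap in either.

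Called with MYB were also SAMD9L, USP18 and EIF2AK2, higher, and IFITM2, IRF3 and ISG20, lower. SAMD9L had 3.66, 3.82 and 3.35 CPM with MYB, against 2.10, 1.49 and 2.15 CPM with empty vector (1.88-fold, edgeR adjusted p = 0.00428). USP18, the protease that removes ISG15, had 23, 10 and 18 counts with MYB, against 5, 5 and 8 with empty vector (2.35-fold, edgeR adjusted p = 0.0296). It met the filter on low counts only through NMYB and MYB libraries. Neither gene's groups overlap. EIF2AK2 had 57.0, 58.0 and 63.9 CPM with MYB, against 49.8, 45.9 and 51.0 CPM with empty vector (1.22-fold, edgeR adjusted p = 0.0037), also without overlap. IFITM2 had 77.4, 78.2 and 67.8 CPM with MYB, against 96.5, 99.4 and 96.2 CPM with empty vector, and all MYB libraries lie below empty vector (log2 fold change -0.39, edgeR adjusted p = 0.00321). IRF3, the factor that starts interferon transcription after virus sensing, had 68.5, 76.4 and 65.0 CPM with MYB, against 75.7, 84.0 and 82.5 CPM with empty vector, and the groups overlap (log2 fold change -0.21, edgeR adjusted p = 0.0325). ISG20 had 11, 17 and 11 counts with MYB, against 23, 20 and 19 with empty vector (log2 fold change -0.91, edgeR adjusted p = 0.0382). The members called with MYB numbered 7 without MYB 1 and likewise without MYB 3, and 7 of the 11 were called under all alternatives tried: EIF2AK2, IFIH1, IFITM1, IFITM2, OAS3, SAMD9 and SAMD9L.

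Called with NMYB were also ISG15, MX2, LGALS3BP, IRF1 and BST2, higher, and STAT2, lower. ISG15 had 11.2, 14.8 and 12.1 CPM with NMYB, against 6.96, 8.76 and 8.93 CPM with empty vector (1.54-fold, edgeR adjusted p = 0.00111). MX2, a nuclear pore-associated restriction factor of HIV, had 23, 11 and 19 counts with NMYB, against 10, 8 and 3 with empty vector (2.48-fold, edgeR adjusted p = 0.0181). It met the filter on low counts only through NMYB and MYB libraries. The groups do not overlap in either gene. LGALS3BP had 3.08, 4.29 and 3.28 CPM with NMYB, against 2.25, 2.69 and 2.26 CPM with empty vector (1.47-fold, edgeR adjusted p = 0.0221). IRF1, a factor induced through GAS sites, had 4.80, 6.17 and 5.42 CPM with NMYB, against 3.30, 4.70 and 3.50 CPM with empty vector (1.42-fold, edgeR adjusted p = 0.024). LGALS3BP and IRF1 libraries with NMYB all lie above empty vector, by less than 1 CPM at the nearest pair. BST2 averaged 165 ± 5.16 CPM with NMYB and 148 ± 3.86 CPM with empty vector (SD, n = 3 each, edgeR adjusted p = 0.0198), and STAT2 averaged 60.2 ± 0.889 CPM with NMYB and 66.7 ± 1.21 CPM with empty vector (adjusted p = 0.0472). The members called with NMYB numbered 6 without empty vector 3, and 4 of the 11 were called under all alternatives tried: IFIH1, IFITM1, ISG15 and OAS3. The count was 17 when trends of fold change with GC content were removed, when 5082 of all genes were called in place of 3945.

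Between NMYB and MYB, 1 of 35 tested members passed, beside 1.14% of all genes (0.518% higher and 0.626% lower), with 8 higher and 2 lower at an unadjusted p below 0.05. IFITM1 was 1.15-fold higher with NMYB than with MYB (1.08 to 1.23, edgeR adjusted p = 0.0359), and its libraries in these groups do not overlap. The call was lost in 8 of 16 alternatives, among them a fit of the 6 NMYB and MYB libraries alone. Without a single library of MYB 1, MYB 2, MYB 3, NMYB 1, NMYB 2, empty vector 2 or empty vector 3, the count was 0, and without NMYB 3 it was 2, when EIF2AK2 was lower. ISG15 and SAMD9L had different calls in the comparisons with empty vector, but their log2 differences between NMYB and MYB of 0.39 ± 0.118 SE and -0.37 ± 0.196 SE did not pass.

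Outside the 48, 44 pathway genes were tested. With NMYB 8 were higher and 7 lower, beside 12.6% and 12.4% of all genes. With MYB 6 were higher and 12 lower, beside 9.62% and 12.7%. IFI16, a sensor of DNA, had 3.63, 2.60 and 3.70 CPM with NMYB, 3.62, 3.25 and 2.79 CPM with MYB and 1.30, 1.03 and 2.09 CPM with empty vector (2.27-fold with NMYB, edgeR adjusted p = 0.000891, and 2.2-fold with MYB, adjusted p = 0.00113). Every NMYB and MYB library lies above empty vector. NMI, which binds STAT proteins, was 1.4-fold higher with NMYB and 1.35-fold higher with MYB. APOBEC3G, a cytidine deaminase that mutates retroviral DNA, had log2 fold changes of -0.48 with NMYB and -0.63 with MYB. GBP2, an interferon-induced GTPase, was higher with NMYB (log2 fold change 0.73), and SOCS3, a feedback inhibitor of cytokine receptors, was lower with MYB (-0.70). All of these passed an edgeR adjusted p of 0.05. Between NMYB and MYB, edgeR called 0 of the 44, with 11 at an unadjusted p below 0.05.

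Exon usage, the question of the eRNA experiments, was tested as the deviation of each bin's fold change from that of its gene. With 34kn, 0 of 23 member ids with at least 2 usable bins were called by edgeR's diffSpliceDGE (Simes p, adjusted), beside 7.24% of all 11407 ids. There were 2 at an unadjusted p below 0.05, and limma's diffSplice called 1, the IFITM1/IFITM2 id, beside 679 of all ids. The smallest gene-level adjusted p belonged to the IFNAR2 and IL10RB id (0.0602). Its bin 6 alone, at a log2 fold change of -1.20 relative to the id, had a bin-level adjusted p of 0.0237. Without 34kn control 2 the count was 2, the IFNAR2 id and the IFITM1/IFITM2 id, when 2645 of all ids were called in place of 826. Without 34kn 3 it was 1, the IFNAR2 id, when 365 were called. With 34kp, 0 of 27 member ids were called, beside 0.0853% of all 11721 ids, with 3 at an unadjusted p below 0.05 and 0 by limma. The smallest gene-level adjusted p was 0.171, for the IFITM1/IFITM2 id, whose bin of lowest p, bin 42, had a log2 fold change of -1.30 relative to the id (bin-level adjusted p = 0.0605). For IFI27, OAS3 and ISG15, whose gene-level differences with 34kp were large, the adjusted p of exon usage was 1.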

How the data were processed

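RNA from 21 K562 libraries was measured by RNA-seq. The submitters' processing notes name Trimmomatic 0.93, the aligners STAR 2.7.10a and HISAT2 2.2.1 and the counter featureCounts 2.0.1. Neither a strand setting nor an annotation release is given in the sources used here. The authors deposited raw counts per exon bin for the 12 eRNA libraries, and a table of raw gene counts for the other 9. Bin counts were summed per gene id. Lines without a bin name entered neither library sizes nor tests, with 29.5% to 32.8% of counted items lying outside annotated bins, 4.46% to 10.5% of low alignment quality and 0.0155% to 0.0225% ambiguous. Positions, exon lengths and GC content came from GENCODE 29.

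Counts were tested two-sided with edgeR 4.0.16 (quasi-likelihood, TMM scaling, a filter at a minimum count of 10, R 4.3.3) and p-values were adjusted by Benjamini-Hochberg over all ids tested, with a threshold of 0.05. Each eRNA experiment was fitted alone, their difference over 12 libraries and the MYB experiment over 9. Exon usage was tested with diffSpliceDGE, and with limma 3.58.1 as an alternative, both on bins. DESeq2 1.42.0, other scaling and filters, GC correction, a replicate block and leaving out each library were the alternatives. The edgeR tests of counts and of exon usage were also run on simulated data. No simulated run is reported for the alternatives. CPM values are TMM-scaled. Every pair of libraries within a group differed beyond sampling noise (chi-square per degree of freedom 1.592 to 51.7), so all were counted separately. Intervals of fold changes come from the edgeR fits and include the spread between libraries, whereas limits for counts of 0 cover counting error only.

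The members and all lists were chosen with earlier results of these data known. Every member past the threshold is named, with values per library for up to 12 with the largest fold changes in a comparison. Of the other pathway genes, up to 4 past the threshold are named, and 1 is not reported here. Promoters are RefSeq sequences of GRCh38.p14, and 30 of the 36 were found by their first transcribed bases in GENCODE transcripts. PARP10 promoter sequence and those of the members without an entry are not shown.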

Additional observations from a re-analysis of the deposited data

Results flagged for a closer look

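For 11 ids the effect of 34kn differed from that of 34kp by the edgeR test of the difference itself, which is what set them apart. In each the effect of 34kn was the lower one, on the log2 scale (34kn effect minus 34kp effect). Among the membrane and induced genes the differences were -3.26 for IFI6, -3.07 for IFI27, -0.71 for IFITM3 and -0.63 for the IFITM1/IFITM2 id. For OAS3 the difference was -2.07, for ISG15 -1.79, for HELZ2 -1.26 and for PARP9 -1.03. Of the transcription factors, IRF7 differed by -1.23 and the id that holds IRF9 by -0.58. For MX1 the fitted difference of -8.91 depends on the prior count, since no 34kn library holds a count of it, and is no bound. Control levels were not the same in the eRNA experiments, with some members higher in the 34kp controls and others in the 34kn controls, and the part of that in these differences was not tested.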

How the results depend on the processing

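No called member changed direction in the 792 refits of single called members, of which 104 lost the call. Members that were not called were not followed across the alternatives. The count with 34kp was 9 to 20 when single libraries were left out, the difference between eRNA effects gave 8 to 15, MYB 7 to 15, NMYB 6 to 12 and NMYB against MYB 0 to 2. With 34kn the same range was 0 to 5, with exon usage at 0 to 2 for 34kn and 0 for 34kp. Over all ids, these fits of counts called 46 to 1175 with 34kp, 0 to 2982 with 34kn and 380 to 2747 for their difference. Over all genes, they called 2491 to 4629 for MYB, 2711 to 3900 for NMYB and 0 to 323 for NMYB against MYB. Without a filter on low counts there were 18 for the difference between eRNA effects, 4 for NMYB against MYB and 1 for 34kn. In the same order, 2085, 656 and 1572 were called over the whole table. DESeq2 called 3 for NMYB against MYB, beside 399 of all genes, and 1 for 34kn, beside 1289 of all ids. A fit of the compared groups alone gave 0 for NMYB against MYB, beside 60 of all genes. For exon usage with 34kn, limma called 1 id, beside 679 of all ids. Removing the GC trend gave 17 members for NMYB (13 higher, 4 lower), and 17 with the block as well (12 higher, 5 lower), beside 16 for MYB with both (12 higher, 4 lower). Of all genes, 5082 and 5153 were then called for NMYB and 5104 for MYB. The causes of these shifts were not tested.

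The replicate numbers were not taken to pair the libraries, since same-numbered libraries did not deviate together in every pair. Their correlations were -0.185, 0.008 and -0.122 for 34kp and -0.014, 0.117 and 0.087 for NMYB against MYB. With the replicate block, 1184 of all genes were called for NMYB against MYB in place of 181. Whether replicate numbers mark a shared batch there was not tested. With the replicate block, 10 members were called with 34kp, beside 71 of all ids, and 10 for the difference between eRNA effects, beside 651. For NMYB against MYB there were 6, and 3 with the GC trend also removed, when 759 of all genes were called. The block gave 12 for NMYB, beside 4713 of all genes, 12 for MYB, beside 4342, and 0 for 34kn, beside 0 of all ids. At the depth of these libraries, members such as HERC5 and IFI44 could not be measured.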
